A study of Mus musculus with 6 samples.

Results

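Aqp4, Gja1, Gjb6, Slc1a2, Slc1a3, Slc7a11, Glul, Aldh1l1 and Fgfr3 are 9 genes of astrocyte water flow, gap junctions, glutamate uptake and metabolism. They were chosen by symbol from the 32285 genes in the count matrices, and none of them was used to set a cell class. RNA was counted in single cells of the hippocampus at 6 months of age. The 3 groups held 2 samples each. They were 5×FAD mice that received Aβ3FTnAu (5xFAD_Ab3FTnAu), 5×FAD mice that received PBS (5xFAD_PBS) and wild-type littermates, which also received PBS (WT_PBS). As background, 5×FAD mice carry human amyloid precursor protein and presenilin transgenes driven by a neuronal promoter and form amyloid-β plaques. From the series title, Aβ3FTnAu is a protein and gold nanostructure directed at such plaques, and from the design the question for these genes is how their RNA stood in treated against untreated 5×FAD mice and in 5×FAD against wild-type mice. The sources used here give no dose, route or sex and do not say how many mice lie behind a sample, so p-values measure the spread between samples, which may be technical.

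As background, astrocytes take up the glutamate, potassium and water that active neurons release and spread them through a network of coupled cells. Aqp4 encodes the water channel of astrocyte end feet around vessels. Gja1 and Gjb6 encode the connexins that join astrocytes by gap junctions. Slc1a2 and Slc1a3 encode the main glial glutamate transporters, and Glul encodes glutamine synthetase, which turns the glutamate taken up into glutamine for neurons. Slc7a11 encodes the light chain of the exchanger that imports cystine, a source of glutathione, and releases glutamate. Aldh1l1 encodes a folate enzyme whose promoter is widely used to mark astrocytes, and Fgfr3 encodes a fibroblast growth factor receptor that astrocytes and their progenitors express.

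The 6 samples held 5196 to 14993 cell barcodes and 32528417 to 76780861 UMIs (unique molecular identifiers, 1 per captured RNA molecule). Of 50224 barcodes, 41656 were kept as cells, and 9 to 45 barcodes were shared by a pair of samples. Barcodes with no mitochondrial UMI made up 66.6% and 65.8% of 5xFAD_Ab3FTnAu samples, 22.7% and 17.9% of 5xFAD_PBS samples, and 57.4% and 30.1% of WT_PBS samples, so this share separated treated from untreated 5×FAD samples. The labels describe suspensions of single cells, and whether such barcodes held nuclei or damaged cells was not tested. Astrocytes were cells with at least 80 UMIs per 10000 from 18 other astrocyte genes, and 1002 cells (2.41% of those kept) met the rule. Sample WT_PBS 1 gave 637 of them. The other samples gave 77 and 39 (5xFAD_Ab3FTnAu), 79 and 65 (5xFAD_PBS) and 105 (WT_PBS 2), with 67572 to 191783 UMIs each against 1043930 in WT_PBS 1. The median astrocyte held 1560 UMIs, 0.357 of the median kept cell, and the ratio to the sample's own median was 0.294 and 0.321 in treated samples, 0.361 and 0.403 in untreated 5×FAD samples, and 0.389 and 0.357 in wild-type samples. The class is a range of a marker score: 42 astrocytes lay at 80 to 120 marker UMIs per 10000, and 753 cells lay at 40 to 80. Its 10 leading genes by fold over the other kept cells held 2 of the 18 markers, 2 of the 9 genes described here (Slc1a3 and Gja1) and no marker of another class. The summed level of the 18 markers was 20610 and 21029 CPM (counts scaled to the same total in every class and sample) in 5xFAD_Ab3FTnAu, 19371 and 22961 CPM in 5xFAD_PBS, and 24653 and 20763 CPM in WT_PBS. Other cells' markers were present at low level: over astrocytes, the median was 7.15 UMIs per 10000 for 10 general neuron genes, 12.6 for 13 dentate granule genes, 4.75 for 10 oligodendrocyte precursor genes, and 0 for the oligodendrocyte, microglia, endothelial and ependymal lists.

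Sequences before a RefSeq start of 4 of the genes are shown, because the data below turn on them: Gja1 and Slc7a11 had the lowest fitted log2 changes of the 9 genes in treated against untreated 5×FAD astrocytes, and Slc1a2 and Slc1a3 stood apart in different neuron fields. Each line holds the 250 bases before the RefSeq start (GRCm38.p6), 5′ to 3′ on the gene's own strand, and capitals mark a match to a motif that was searched.
Gja1: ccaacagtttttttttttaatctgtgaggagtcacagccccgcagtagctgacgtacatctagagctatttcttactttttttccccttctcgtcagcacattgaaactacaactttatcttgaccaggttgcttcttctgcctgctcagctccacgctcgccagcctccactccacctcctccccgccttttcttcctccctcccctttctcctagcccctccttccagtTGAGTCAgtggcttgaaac
Slc7a11: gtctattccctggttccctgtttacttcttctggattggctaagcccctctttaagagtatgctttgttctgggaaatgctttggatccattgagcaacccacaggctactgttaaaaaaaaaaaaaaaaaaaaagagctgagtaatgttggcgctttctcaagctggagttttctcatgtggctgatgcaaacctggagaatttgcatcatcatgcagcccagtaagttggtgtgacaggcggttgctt
Slc1a2: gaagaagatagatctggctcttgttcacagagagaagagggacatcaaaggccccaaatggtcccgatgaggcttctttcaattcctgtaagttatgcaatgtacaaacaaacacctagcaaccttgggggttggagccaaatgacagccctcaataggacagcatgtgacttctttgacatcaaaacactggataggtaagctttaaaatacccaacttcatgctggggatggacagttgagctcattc
Slc1a3: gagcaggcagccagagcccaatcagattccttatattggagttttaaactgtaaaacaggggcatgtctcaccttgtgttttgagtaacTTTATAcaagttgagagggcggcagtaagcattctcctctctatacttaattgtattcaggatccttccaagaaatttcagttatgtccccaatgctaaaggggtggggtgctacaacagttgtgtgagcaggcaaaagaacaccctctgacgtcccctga
The windows lie at chr10:56377050-56377299 (plus strand), chr3:50443614-50443863 (minus), chr2:102706188-102706437 (plus) and chr15:8710808-8711057 (minus), and the Slc1a2 window lies inside that gene as GENCODE annotates it, before a start downstream of the gene's first. The capitals in Gja1 are the AP-1 motif TGACTCA read on the other strand, with its first base at position -19 from the start, and 4.46% of all 32851 RefSeq windows of this length hold it. The capitals in Slc1a3 are the TATA motif TATAAA, also on the other strand, at position -161, and 12.4% of windows hold it. Of the 9 genes, 8 had a window, and 6 motifs were searched on both strands. Fgfr3 held the antioxidant response core TGACNNNGC at position -53, as 10.2% of windows do, and that motif can overlap TGACTCA. No window of the 8 genes held the full nuclear factor I site (0.0365% of windows), its shorter form TTGGCA (12.3%) or the SOX core AACAAT (9.42%). A match is a run of letters and not evidence of binding.

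In the GENCODE vM21 annotation of GRCm38, the genes lie at chr18:15389496-15410982 (Aqp4, minus strand), chr10:56377330-56402513 (Gja1, plus), chr14:57123303-57133611 (Gjb6, minus), chr2:102658659-102790784 (Slc1a2, plus), chr15:8634124-8710764 (Slc1a3, minus), chr3:49892526-50443614 (Slc7a11, minus), chr1:153899944-153909723 (Glul, plus), chr6:90486427-90600203 (Aldh1l1, plus) and chr5:33721674-33737068 (Fgfr3, plus). Slc1a2 overlaps Gm13872 on the opposite strand, which had 311 UMIs in astrocytes beside 10043 of Slc1a2. Aqp4 overlaps AC133525.2, with 24 UMIs beside 534, and the overlapping genes of Glul and Aldh1l1 had 5 and 14. The sources used here do not give the strand use of the counting, so reads of such pairs may have been split.

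Levels are compared here and below among 8 classes, without endothelial and mural cells (30) and ependymal and choroid plexus cells (4). Among the 8, each of the 9 genes had its highest level in astrocytes in 6 of 6 samples. The astrocyte range did not overlap that of the next class. In 5xFAD_PBS 1 the endothelial and mural cells left out had 717 CPM of Slc7a11 (12 UMIs in 6 cells), above its astrocytes at 481 CPM. Classes were cut from marker genes of the same cells, so this is a description with no test. Aqp4 lay at 135 to 397 CPM in astrocytes, at 11.5 to 41.3 CPM in oligodendrocyte precursors and at 21.6 to 35.4 CPM in microglia, and these 2 classes overlapped. Neuron fields and oligodendrocytes had at most 4.1 CPM of Aqp4. Gja1 lay at 153 to 838 CPM in astrocytes and at 0 to 12.4 CPM in oligodendrocytes, the next class, and Gjb6 at 84.5 to 146 CPM in astrocytes and 0 to 3.83 CPM in oligodendrocyte precursors. All classes below astrocytes overlapped their neighbours in the order for both connexins.

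The transporter genes were also found in some neurons and other glia. Slc1a2 lay at 5189 to 7919 CPM in astrocytes, followed by CA3 neurons at 243 to 322 CPM and oligodendrocyte precursors at 230 to 297 CPM, which overlapped. Dentate granule neurons followed at 109 to 121 CPM, apart from the classes above and below. CA1 neurons (60.4 to 74.2 CPM), inhibitory neurons (53.3 to 71.4 CPM), oligodendrocytes (25.7 to 94.9 CPM) and microglia (0 to 104 CPM) overlapped each other. Slc1a3 lay at 1879 to 2926 CPM in astrocytes, and at 133 to 241 CPM in microglia, 138 to 230 CPM in oligodendrocyte precursors and 120 to 147 CPM in oligodendrocytes, with each of these overlapping the next. Dentate granule neurons had 49.0 to 69.6 CPM of Slc1a3, apart from the classes above and below, and inhibitory, CA3 and CA1 neurons had at most 16.2 CPM.

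Glul lay at 347 to 465 CPM in astrocytes. Oligodendrocytes, the next class, had 85.0 to 144 CPM and microglia 26.6 to 131 CPM, and no neuron field was above 14.0 CPM. Slc7a11 lay at 180 to 786 CPM in astrocytes, 0 to 26.0 CPM in microglia and 3.16 to 8.93 CPM in inhibitory neurons. Aldh1l1 lay at 66.1 to 104 CPM in astrocytes against 3.68 to 12.1 CPM in oligodendrocytes, and Fgfr3 at 207 to 347 CPM against 0 to 21.9 CPM in oligodendrocyte precursors. Astrocytes were a small class, so their part of all UMIs differed by gene. By sample, they held 39.4% to 80.5% of the Gja1 UMIs in kept cells, 40% to 74.9% of Gjb6, 29.2% to 72.3% of Fgfr3, 20.7% to 72.4% of Aqp4, 15.4% to 60.4% of Slc1a3, 13.3% to 65.7% of Slc7a11, 14.3% to 52.7% of Aldh1l1, 7.85% to 40.03% of Slc1a2 and 6.67% to 37.1% of Glul. WT_PBS 1, with most of the astrocytes, gave the highest share for every gene. Over all samples the share was 71.0% for Gja1 and 22.3% for Glul, and without WT_PBS 1 it was 51.0% and 14.4%.

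**Figure D1:**
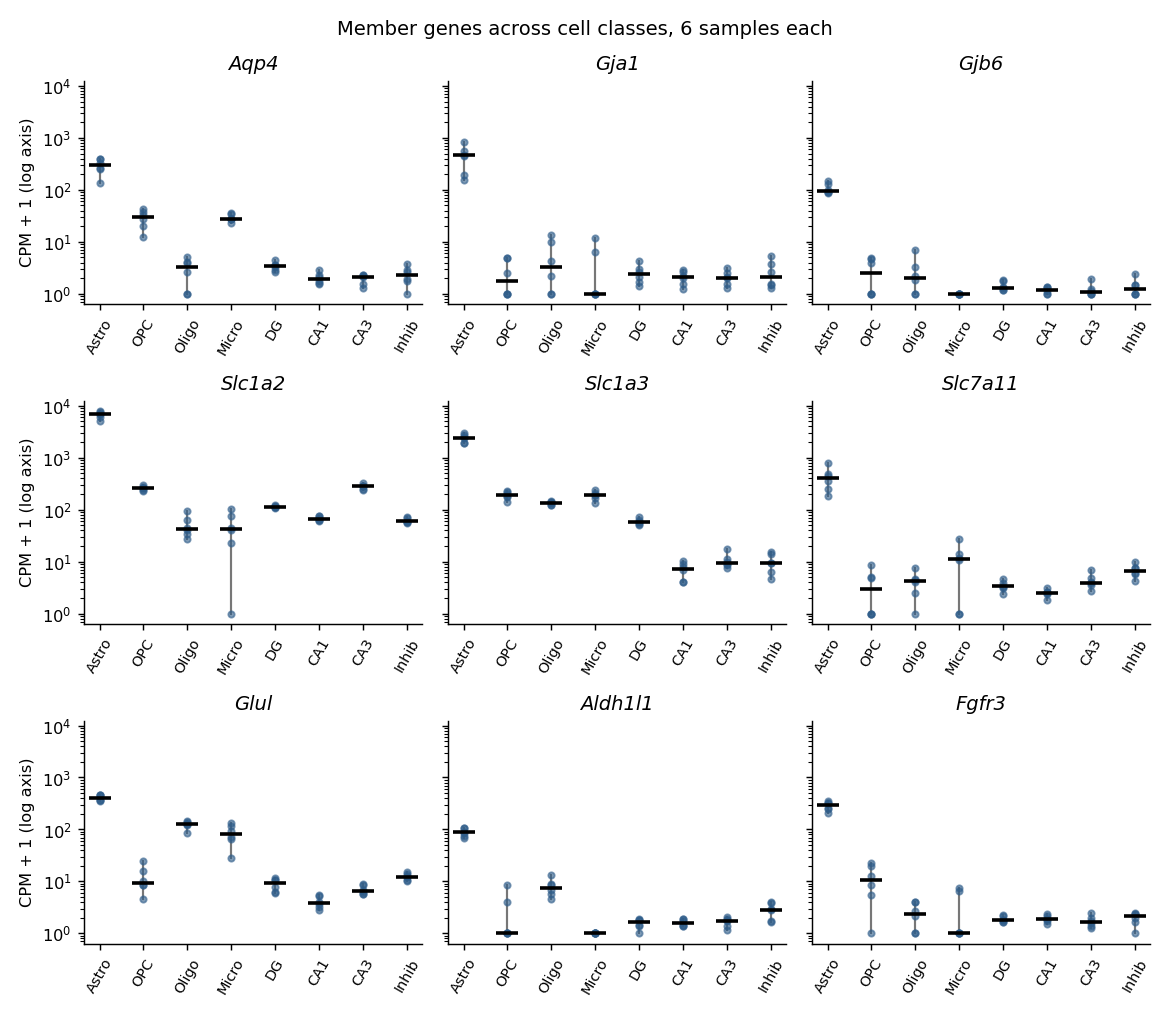
Level of each of the 9 genes (CPM + 1, log axis) in 8 cell classes, with a dot for each of the 6 samples, a bar at their median and a line over their range. Astrocytes stand above every other class in each panel. By median, Slc1a2 comes next in CA3 neurons (243 to 322 CPM), which overlap oligodendrocyte precursors (230 to 297 CPM). Slc1a3 in dentate granule neurons (49.0 to 69.6 CPM) stands above the other 3 neuron fields.

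In astrocytes, no gene of the 9 passed the test between treated and untreated 5×FAD samples (edgeR quasi-likelihood test over 3287 genes, Benjamini-Hochberg adjusted p under 0.05), and the background was 0.0304% of genes called, which is 1 gene, Apoe. Of the 9, 4 had an unadjusted p under 0.05 (Aqp4, Gja1, Slc1a3 and Slc7a11), as did 8.0% of all genes, and DESeq2 called 0 of the 9 and 3 genes in all (0.0913%). Both 5xFAD_Ab3FTnAu samples lay below both 5xFAD_PBS samples for 5 genes (Aqp4, Gja1, Slc1a3, Slc7a11 and Fgfr3), against 17.8% of all genes, and above them for 0, against 23.0%. The remaining 4 overlapped. The median log2 change of the 9 genes was -0.45, against -0.0012 over all genes tested.

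The water channel gene was lower in treated samples and did not pass the test. Aqp4 had 135 and 252 CPM in 5xFAD_Ab3FTnAu astrocytes, 384 and 397 CPM in 5xFAD_PBS and 327 and 266 CPM in WT_PBS. The treated samples were the lowest of the 6 and rested on 15 and 17 UMIs. The treated against untreated log2 change was -1.14 ± 0.32 (SE, adjusted p = 0.338).

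Neither connexin gene passed, and they were not tested against each other. Gja1 had 153 and 192 CPM in 5xFAD_Ab3FTnAu, 451 and 566 CPM in 5xFAD_PBS, and 838 and 469 CPM in WT_PBS. Both treated samples lay far below the other 4, on 17 and 13 UMIs against 74 and 67 in 5xFAD_PBS. The log2 change was -1.64 ± 0.35 (adjusted p = 0.0954), just outside the threshold. Gjb6 had 90.0 and 88.8 CPM in 5xFAD_Ab3FTnAu, 97.5 and 84.5 CPM in 5xFAD_PBS, and 131 and 146 CPM in WT_PBS. Treated and untreated 5×FAD samples of Gjb6 overlapped (-0.09 ± 0.42, adjusted p = 0.981), on 10 and 6 UMIs against 16 and 10. Over all alternatives this change ranged from -1.91 to 0.00135. Both WT_PBS samples were the highest.

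The cystine and glutamate exchanger gene Slc7a11 had 180 and 252 CPM in 5xFAD_Ab3FTnAu, 481 and 786 CPM in 5xFAD_PBS, and 434 and 360 CPM in WT_PBS. Treated samples were again the lowest of the 6, on 20 and 17 UMIs, and the untreated 5×FAD samples were the highest. The treated against untreated log2 change was -1.64 ± 0.32 (adjusted p = 0.0930).

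The glutamate transporter genes differed less between treated and untreated samples. Slc1a3 had 1952 and 1879 CPM in 5xFAD_Ab3FTnAu, 2346 and 2679 CPM in 5xFAD_PBS, and 2926 and 2461 CPM in WT_PBS. The treated samples were the lowest of the 6 by a small margin, with a log2 change of -0.45 ± 0.18 (adjusted p = 0.606). Slc1a2 had 6990 and 7015 CPM in 5xFAD_Ab3FTnAu, 6118 and 7919 CPM in 5xFAD_PBS, and 5189 and 7477 CPM in WT_PBS. All 3 groups overlapped, and with 474 UMIs or more in every sample the change of -0.07 ± 0.19 (adjusted p = 0.955) was the best-counted of the 9.

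Glul, next in the glutamate pathway, had 450 and 370 CPM in 5xFAD_Ab3FTnAu, 347 and 465 CPM in 5xFAD_PBS, and 361 and 459 CPM in WT_PBS, and the groups overlapped (-0.02 ± 0.28, adjusted p = 0.998). Aldh1l1 had 90.0 and 74.0 CPM in 5xFAD_Ab3FTnAu, 104 and 84.5 CPM in 5xFAD_PBS, and 66.1 and 104 CPM in WT_PBS, again with overlap (-0.24 ± 0.48, adjusted p = 0.933). Fgfr3 had 252 and 207 CPM in 5xFAD_Ab3FTnAu, 347 and 321 CPM in 5xFAD_PBS, and 261 and 323 CPM in WT_PBS. Both treated samples were the lowest for Fgfr3, and the change was -0.58 ± 0.29 (adjusted p = 0.637).

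**Figure D2:**
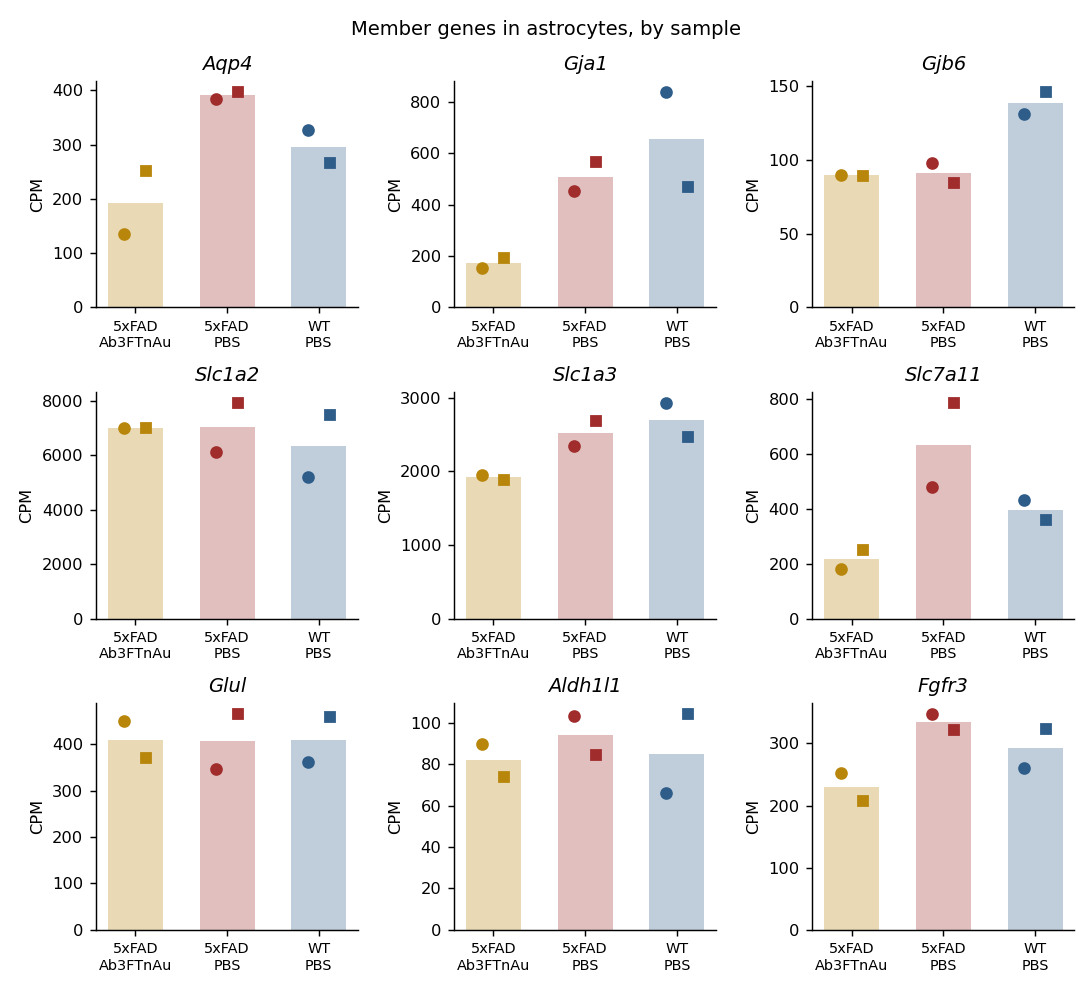
CPM of each gene in astrocytes by sample, in the order 5xFAD_Ab3FTnAu, 5xFAD_PBS, WT_PBS, with bars at the mean of 2 samples, circles for replicate 1 and squares for replicate 2. Treated samples are the lowest for Gja1 (153 and 192 CPM) and Slc7a11 (180 and 252 CPM), and the groups overlap for Slc1a2 and Glul.

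Whether Gja1, Slc7a11 and Aqp4 were called varied with the samples in the fit and with the count filter, and the cause was not tested. With WT_PBS 1 left out, the treated against untreated adjusted p was 5.96e-05 for Gja1, 1.09e-05 for Slc7a11 and 0.0336 for Aqp4. With WT_PBS 2 left out it was 3.52e-05, 7.51e-06 and 0.0344 for the same genes, and in both cases the lone wild-type sample was assumed to vary like the other groups. Without a filter on low counts, Gja1 (adjusted p = 0.000226) and Slc7a11 (9.96e-05) were called, among 31 genes in all. Without 5xFAD_PBS 1, Slc7a11 was called (-1.98, adjusted p = 0.0100). The log2 changes themselves stayed between -1.91 and -0.93 for Gja1, -1.98 and -1.25 for Slc7a11 and -1.57 and -0.75 for Aqp4 over all alternatives.

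The share of astrocytes with no mitochondrial UMI separated treated from untreated 5×FAD samples. It was 64.9% and 53.8% in treated samples and 19.0% and 4.62% in untreated 5×FAD samples. The wild-type samples, at 62.2% and 10.5%, were far apart. Among astrocytes with a mitochondrial UMI (27 and 18 treated, 64 and 62 untreated 5×FAD, 241 and 94 wild-type cells), Gja1 had 120 and 218 CPM in 5xFAD_Ab3FTnAu, 460 and 588 CPM in 5xFAD_PBS, and 887 and 493 CPM in WT_PBS. On 5 and 7 UMIs, the treated samples lay below the other 4 for Gja1 in these cells. The log2 change was -1.76 (adjusted p = 0.357). Slc7a11 in the same cells had 144 and 405 CPM in 5xFAD_Ab3FTnAu, 519 and 749 CPM in 5xFAD_PBS, and 477 and 348 CPM in WT_PBS. Here the treated samples lay below the untreated 5×FAD samples, on 6 and 13 UMIs, and overlapped the wild-type ones (-1.36, adjusted p = 0.525). Aqp4 had 168 and 311 CPM in 5xFAD_Ab3FTnAu, 417 and 401 CPM in 5xFAD_PBS, and 355 and 272 CPM in WT_PBS. Treated samples lay below untreated 5×FAD ones, on 7 and 10 UMIs (-0.91, adjusted p = 0.594). Slc1a3 and Fgfr3, lower in treated samples over all astrocytes, overlapped between treated and untreated 5×FAD samples in these cells. Slc1a3 had 2520 and 2210 CPM in 5xFAD_Ab3FTnAu and 2383 and 2718 CPM in 5xFAD_PBS. Fgfr3 had 336 and 156 CPM against 307 and 312 CPM.

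Among astrocytes without a mitochondrial UMI the untreated 5×FAD samples held only 15 and 3 cells, against 50 and 21 treated and 396 and 11 wild-type cells. Gja1 there had 173 and 169 CPM in 5xFAD_Ab3FTnAu, 403 and 163 CPM in 5xFAD_PBS, and 807 and 261 CPM in WT_PBS, so treated and untreated samples overlapped. The value of 163 CPM was 1 UMI. Slc7a11 in these cells had 201 and 113 CPM in 5xFAD_Ab3FTnAu, 293 and 1468 CPM in 5xFAD_PBS, and 407 and 469 CPM in WT_PBS. The treated samples were the lowest, on 14 and 4 UMIs against 8 and 9 in 5xFAD_PBS. The microglia list in astrocytes was highest in treated samples, at 540 and 562 CPM in 5xFAD_Ab3FTnAu, 451 and 456 CPM in 5xFAD_PBS, and 304 and 448 CPM in WT_PBS, with 0 of 13 genes at 0. The oligodendrocyte precursor list was lower in treated than in untreated 5×FAD samples, at 468 and 533 CPM, 567 and 752 CPM, and 534 and 574 CPM in the same groups. The oligodendrocyte list was at 513 and 311 CPM, 274 and 203 CPM, and 276 and 417 CPM in the same groups, with 1 of 11 genes at 0. The part of these other cells' RNA in the results was not tested.

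**Figure D3:**
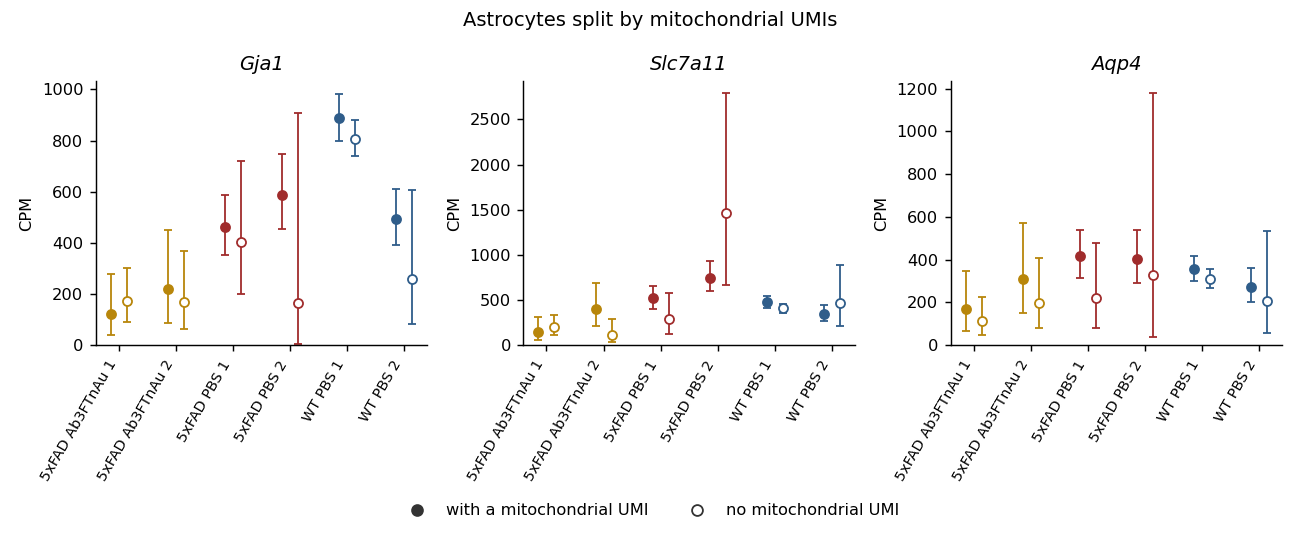
CPM of Gja1, Slc7a11 and Aqp4 by sample in astrocytes with and without a mitochondrial UMI, with exact Poisson 95% intervals that cover counting error only. Among cells with a mitochondrial UMI, Gja1 is lowest in the treated samples (120 and 218 CPM), while among cells without one the intervals of the 5xFAD_PBS samples (15 and 3 cells) are wide.

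Counted per cell, with each cell thinned to 1000 UMIs and none left out, a Gja1 UMI was found in 13.0% and 23.1% of 5xFAD_Ab3FTnAu astrocytes, 38.0% and 41.5% of 5xFAD_PBS astrocytes, and 52.9% and 41.0% of WT_PBS astrocytes. The treated samples were the lowest, with exact binomial 95% intervals of 6.41% to 22.6% and 11.1% to 39.3%. Unthinned, the shares were 16.9% and 30.8%, 55.7% and 56.9%, and 68.0% and 53.3% in the same groups. Dentate granule neurons, which should lack Gja1, had it in 0.0764% to 0.313% of thinned cells, at a median depth of 4211 UMIs against 1560 in astrocytes. For Slc7a11 the thinned shares were 14.3% and 17.9% in treated samples, 26.6% and 50.8% in untreated 5×FAD samples, and 29.8% and 24.8% in wild-type samples, and for Aqp4 13.0% and 12.8%, 24.1% and 30.8%, and 24.5% and 17.1%. Treated samples were the lowest for both. Slc1a2 was found in at least 98.0% of thinned astrocytes in every sample. On average a thinned astrocyte had a UMI of 2.86 and 3.15 of the 9 genes in treated samples, 3.52 and 3.85 in untreated 5×FAD samples, and 3.67 and 3.59 in wild-type samples.

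Between untreated 5×FAD and wild-type astrocytes, 0 of the 9 genes passed (edgeR, 0.0% of 3287 genes called), 1 had an unadjusted p under 0.05 (Slc7a11; 8.79% of all genes), and DESeq2 called 0 of the 9 and 0 genes in all. Both 5xFAD_PBS samples lay above both WT_PBS samples for 2 genes, Aqp4 and Slc7a11 (19.3% of all genes), and below them for 1, Gjb6 (19.2%). Slc7a11 differed most in the fit, with a log2 difference of 0.65 ± 0.27 (adjusted p = 0.502) on the sample values given above. Gjb6 differed by -0.57 ± 0.32 (adjusted p = 0.636) and Aqp4 by 0.37 ± 0.26 (adjusted p = 0.709). Gja1 differed by -0.39 ± 0.28 (adjusted p = 0.710), and its WT_PBS samples, at 838 and 469 CPM, were further apart than the 5xFAD_PBS ones. Fitted differences of the other 5 genes lay between -0.10 (Slc1a3) and 0.28 (Aldh1l1), with adjusted p of 0.822 to 0.9995. The 9 genes had a median of 0.15, against -0.0049 over all genes. The 2 comparisons share the 5xFAD_PBS samples.

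**Figure D4:**
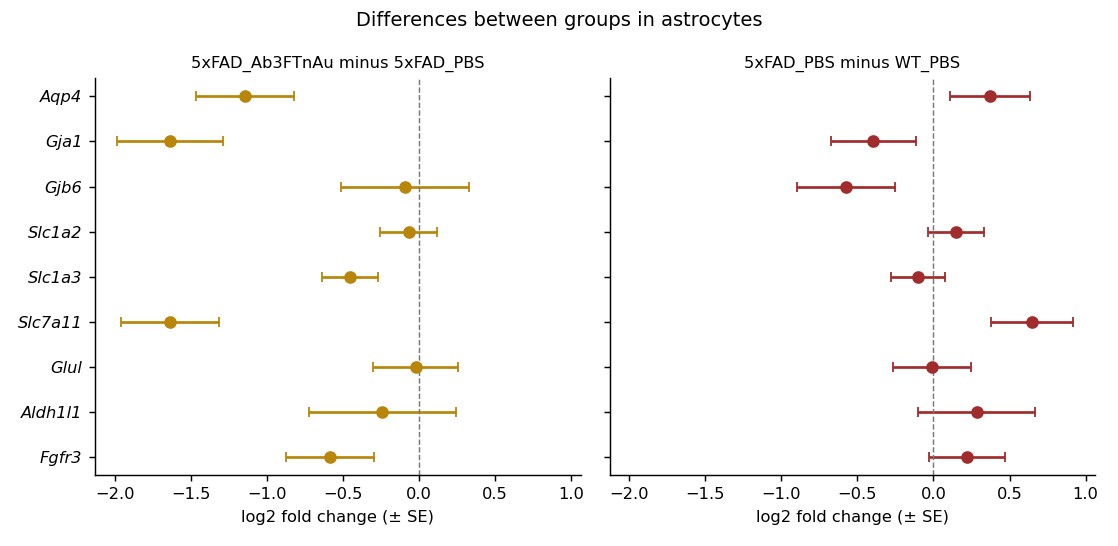
Fitted log2 changes of the 9 genes in astrocytes with their SE, for 5xFAD_Ab3FTnAu minus 5xFAD_PBS and for 5xFAD_PBS minus WT_PBS. Gja1 and Slc7a11 lie furthest below 0 in the first comparison (both -1.64), no gene passed the threshold in either, and the comparisons share the 5xFAD_PBS samples.

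Genes that work with the 9 were followed through 8 lists, and none of their members passed in astrocytes in either comparison. Few were counted well enough to be tested. Of 6 potassium and water genes, 2 were tested, with medians of -0.29 for treated against untreated 5×FAD and -0.46 for 5xFAD_PBS against WT_PBS. Hepacam, a cell adhesion protein that binds the astrocyte chloride channel complex, had 297 and 414 CPM in 5xFAD_Ab3FTnAu, 329 and 330 CPM in 5xFAD_PBS, and 538 and 396 CPM in WT_PBS (0.02 ± 0.28 and -0.53 ± 0.25). Atp1b2, a sodium pump subunit, had 126 and 133 CPM, 146 and 237 CPM, and 356 and 83.4 CPM in the same groups, with the WT_PBS samples at both ends. Of the 8 genes of the complex that anchors aquaporin, 7 were tested (medians -0.10 and 0.07). Dtna, encoding dystrobrevin, had 2267 and 2072 CPM in 5xFAD_Ab3FTnAu, 1761 and 2079 CPM in 5xFAD_PBS, and 1781 and 1632 CPM in WT_PBS, and Dmd, encoding dystrophin, had 1224 and 1243 CPM, 1060 and 1090 CPM, and 1378 and 1335 CPM.

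Of 11 other connexin, pannexin and junction genes, only Tjp1, a scaffold protein of tight and gap junctions, was tested (0.08 ± 0.29 and 0.19 ± 0.27), and Gjc3 was at 0 to 27.0 CPM. Of 15 genes of the glutamate and glutamine cycle, 14 were in the files and 7 were tested (medians -0.0083 and -0.08). Grm3, a glutamate receptor of astrocytes, had 1448 and 1421 CPM in 5xFAD_Ab3FTnAu, 1389 and 1487 CPM in 5xFAD_PBS, and 1217 and 1382 CPM in WT_PBS, and Glud1, glutamate dehydrogenase, had 540 and 400 CPM, 463 and 456 CPM, and 705 and 568 CPM. The untreated 5×FAD samples of Glud1 lay below both wild-type samples (-0.48 ± 0.24, adjusted p = 0.604). Of 13 cystine and glutathione genes, 4 were tested (medians -0.76 and 0.84). Slc3a2, the heavy chain that pairs with Slc7a11, had 81.0 and 118 CPM in 5xFAD_Ab3FTnAu, 60.9 and 144 CPM in 5xFAD_PBS, and 143 and 78.2 CPM in WT_PBS, so its groups overlapped where those of Slc7a11 did not (-0.08 ± 0.55, adjusted p = 0.988). Gss, glutathione synthetase, differed by 0.50 ± 0.69 and 1.44 ± 0.68 and did not pass.

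None of 10 folate genes beside Aldh1l1 was counted well enough to be tested. Mthfd1 and Mtr, the highest of them, lay at 25.9 to 54.0 CPM and 16.9 to 88.8 CPM. Of 14 FGF signalling genes, 8 were tested (medians 0.35 and 0.10). Fgfr2, another receptor of the family, had 1628 and 1465 CPM in 5xFAD_Ab3FTnAu, 1152 and 1285 CPM in 5xFAD_PBS, and 752 and 1413 CPM in WT_PBS, and Fgfr1 had 261 and 385 CPM, 183 and 279 CPM, and 188 and 203 CPM. Both treated samples of Fgfr2 were the highest of the 6 (0.29 ± 0.27, adjusted p = 0.838), where both of Fgfr3 were the lowest. Of 15 reactive astrocyte genes, 3 were tested (medians -0.63 and 1.66). Gfap, the intermediate filament of reactive astrocytes, had 225 and 311 CPM in 5xFAD_Ab3FTnAu, 268 and 524 CPM in 5xFAD_PBS, and 110 and 146 CPM in WT_PBS. Both wild-type samples were the lowest, with a difference of 1.66 ± 0.33 for 5xFAD_PBS against WT_PBS (adjusted p = 0.165), and C4b, a complement gene, differed by 1.67 ± 0.35 (adjusted p = 0.191). Medians over all genes tested were -0.0012 and -0.0049.

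Slc1a2 in CA3 neurons and Slc1a3 in dentate granule neurons stood apart from the other neuron fields. Dentate granule (9393 cells), CA1 (7849), CA3 (3557) and inhibitory neurons (3534) were set by marker UMIs in the same way, and each field was compared with the mean of the other 3 over 24 sums (4 fields by 6 samples, sample as a block). The comparison was added after the levels had been seen. Of the 9 genes, 6 had enough counts to be tested: Slc1a2, Slc1a3, Glul, Slc7a11, Aqp4 and Gja1. In CA3 neurons 1 was higher (27.1% of 15912 genes) and 1 lower (26.6%), in dentate granule neurons 3 were higher (34.4%) and 0 lower (31.9%), in CA1 neurons 0 were higher (25.4%) and 4 lower (24.9%), and in inhibitory neurons 2 were higher (33.3%) and 2 lower (31.1%). With so many of all genes called in each direction, these counts are not a result about the 9 genes, and the sizes are given for single genes.

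Slc1a2 in CA3 neurons had 322 and 286 CPM in 5xFAD_Ab3FTnAu, 280 and 280 CPM in 5xFAD_PBS, and 243 and 254 CPM in WT_PBS. In the same groups it had 115 and 121, 113 and 112, and 114 and 109 CPM in dentate granule neurons, 61.4 and 69.6, 60.4 and 73.5, and 62.9 and 74.2 CPM in CA1 neurons, and 56.7 and 57.3, 67.3 and 53.3, and 59.2 and 71.4 CPM in inhibitory neurons. No sample of another field came near the CA3 range. CA3 was higher than the mean of the other fields, with a log2 difference of 1.99 ± 0.05 (adjusted p = 3.56e-21), and in each sample it was 3.42 to 5.24 times the CA1 level and 2.13 to 2.80 times the dentate level. The CA3 level was 3.40% to 4.67% of the astrocyte level in the same sample. Slc1a2 was lower in CA1 (-0.83 ± 0.06) and inhibitory neurons (-1.23 ± 0.07), and dentate granule neurons did not differ beyond the spread (0.07 ± 0.05, adjusted p = 0.296).

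Slc1a3 had another order. In dentate granule neurons it had 52.2 and 49.0 CPM in 5xFAD_Ab3FTnAu, 57.1 and 56.5 CPM in 5xFAD_PBS, and 62.1 and 69.6 CPM in WT_PBS. CA3 neurons had 7.83 and 7.72 CPM, 16.2 and 6.58 CPM, and 10.1 and 8.84 CPM in the same groups. Every dentate sample lay above every sample of the other fields, 7.14 to 17.5 times the CA1 level and 3.53 to 8.58 times the CA3 level of its own library. The dentate difference was 2.83 ± 0.11 (adjusted p = 6.48e-18), and Slc1a3 was lower in CA1 (-1.46 ± 0.16), inhibitory (-0.91 ± 0.19) and CA3 neurons (-0.46 ± 0.16, adjusted p = 0.0186). The last of these was lost in 5 alternatives (adjusted p = 0.0510 to 0.0903).

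Of the other 4 genes, Glul was higher in inhibitory neurons (0.97 ± 0.14), lower in CA1 neurons (-1.32 ± 0.14) and higher in dentate granule neurons by 0.30 ± 0.12 (adjusted p = 0.0325), a call that turned to -0.12 under the stricter class rule and was lost in 5 more alternatives (0.02 in cells without a mitochondrial UMI, and adjusted p = 0.0563 to 0.101 without either 5xFAD_Ab3FTnAu or either WT_PBS sample). Slc7a11 was higher in inhibitory neurons (1.17 ± 0.21), with 4.85 and 4.96 CPM in 5xFAD_Ab3FTnAu, 8.93 and 6.66 CPM in 5xFAD_PBS, and 6.42 and 3.16 CPM in WT_PBS, and lower in CA1 neurons (-1.23 ± 0.20). Aqp4 was higher in dentate granule neurons by 1.04 ± 0.24 (adjusted p = 0.000414), at 1.67 to 3.54 CPM. Under the stricter class rule and in cells split by mitochondrial UMIs, Aqp4 had too few counts to be tested. Gja1 passed in no field (adjusted p = 0.228 to 0.533).

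Astrocyte markers were also counted in the neuron fields. Summed levels of the 18 astrocyte markers were 815 to 922 CPM in dentate granule, 701 to 826 CPM in CA1, 222 to 298 CPM in CA3 and 194 to 309 CPM in inhibitory neurons, with none of the 18 at 0. Slc4a4, one of the 18, was among the 10 leading genes of the dentate granule class. The part of free astrocyte RNA in the neuron levels was not tested. In cells thinned to 1000 UMIs, Slc1a2 was found in 21.7% to 25.4% of CA3, 10.2% to 12.9% of dentate granule, 5.34% to 8.22% of CA1 and 5.25% to 6.87% of inhibitory neurons, at median depths of 8319, 4211 and 6218 UMIs in the first 3 fields. Unthinned, the CA3 share was 70.1% to 85.8%. Slc1a3 was found in 4.35% to 7.18% of thinned dentate granule neurons and 0.324% to 0.962% of CA1 neurons.

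**Figure D5:**
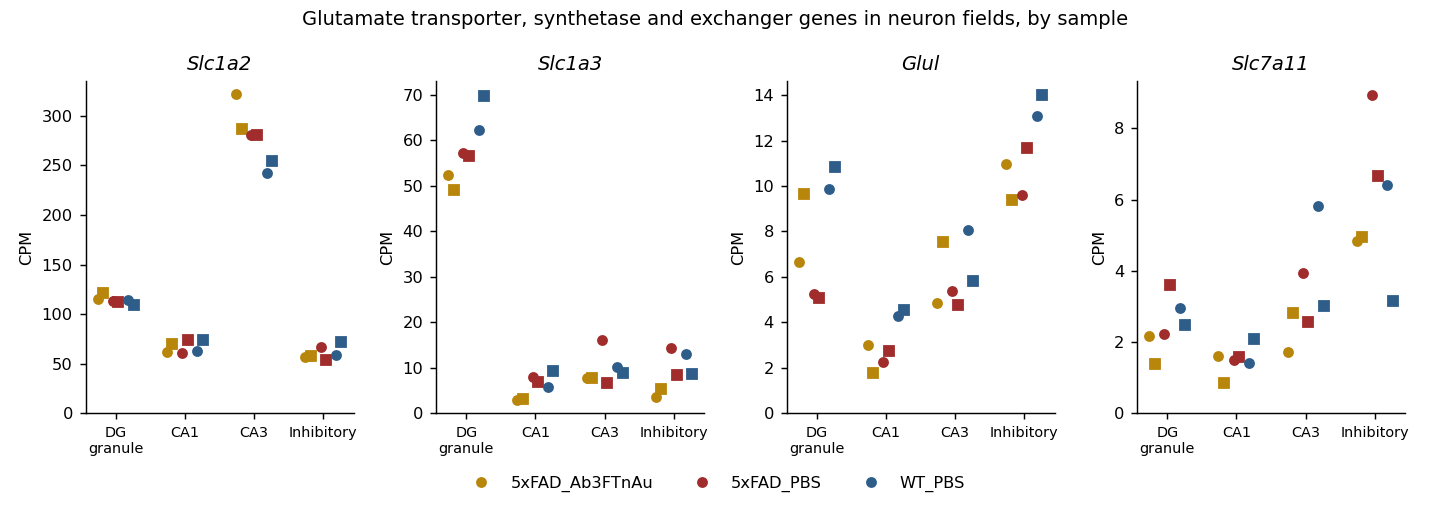
CPM of Slc1a2, Slc1a3, Glul and Slc7a11 in the 4 neuron fields by sample, ordered 5xFAD_Ab3FTnAu, 5xFAD_PBS, WT_PBS, with circles for replicate 1 and squares for replicate 2. Slc1a2 is highest in CA3 neurons in every sample (243 to 322 CPM) and Slc1a3 in dentate granule neurons (49.0 to 69.6 CPM).

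Between the groups, no gene of the 9 passed in a neuron field (edgeR). For treated against untreated 5×FAD samples the background was 0.0% of genes called in dentate granule (16079 genes), CA1 (15812) and CA3 neurons (14600) and 0.0218% in inhibitory neurons (3 of 13774), and for untreated 5×FAD against wild type it was 0.0% in all 4 fields. Of the 9, 6 were tested in dentate granule and CA1 neurons and 4 in CA3 and inhibitory neurons. At an unadjusted p under 0.05 stood 1 gene in dentate granule, 3 in CA1, 0 in CA3 and 1 in inhibitory neurons for treated against untreated samples, against 16.6%, 19.3%, 16.3% and 16.6% of all genes, and 2, 0, 0 and 0 for untreated 5×FAD against wild type, against 9.47%, 6.48%, 6.31% and 5.95%. DESeq2 called none of the 9 in either comparison, and of all genes 1.74%, 2.5%, 0.952% and 1.0% in the first and 0.603%, 0.12%, 0.0342% and 0.0% in the second.

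The 3 genes of CA1 neurons were Slc1a3, Gja1 and Aqp4, all lower in treated samples. Gja1 rested there on 2 and 5 UMIs in 5xFAD_Ab3FTnAu and 8 and 8 in 5xFAD_PBS. Aqp4 rested on 5 and 6 UMIs against 12 and 10. Slc1a3 in CA1 neurons had 2.99 and 3.14 CPM in 5xFAD_Ab3FTnAu, 8.0 and 6.82 CPM in 5xFAD_PBS, and 5.84 and 9.23 CPM in WT_PBS, and the treated samples were the lowest (-1.27 ± 0.34, adjusted p = 0.139). With no filter on low counts Slc1a3 passed there (adjusted p = 0.0222), and 1461 genes in all were called in that fit. When leaving out 1 sample the change was -1.39 to -1.14, and whether it passed varied. The change was -0.60 when doublets were kept. Slc1a3 in inhibitory neurons had 3.57 and 5.24 CPM in 5xFAD_Ab3FTnAu, 14.4 and 8.33 CPM in 5xFAD_PBS, and 13.1 and 8.58 CPM in WT_PBS. It was again lowest in treated samples (-1.29 ± 0.43, adjusted p = 0.207). When leaving out 1 sample the change was -1.69 to -0.88, and whether it passed varied. Gja1 in CA1 neurons had 0.230 and 0.523 CPM in 5xFAD_Ab3FTnAu, 1.21 and 1.05 CPM in 5xFAD_PBS, and 1.90 and 1.60 CPM in WT_PBS. These low values followed the same order of group means as Gja1 in astrocytes, and how much of them came from free RNA was not tested.

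Glul in dentate granule neurons had 6.68 and 9.64 CPM in 5xFAD_Ab3FTnAu, 5.27 and 5.06 CPM in 5xFAD_PBS, and 9.87 and 10.9 CPM in WT_PBS. The untreated 5×FAD samples were the lowest (-1.02 ± 0.26 against WT_PBS, adjusted p = 0.379). The difference passed with no filter (adjusted p = 0.0430), where 790 genes in all were called. When leaving out 1 sample it was -1.10 to -0.94, and whether it passed varied. In the other fields too, both 5xFAD_PBS samples lay below both WT_PBS samples for Glul. Those differences were -0.82 ± 0.35 in CA1, -0.43 ± 0.33 in CA3 and -0.32 ± 0.29 in inhibitory neurons, and none passed. The fields come from the same samples and are not separate repeats. How many of all genes lay lower in this way was not counted in the fields, and in astrocytes it was 19.2%. The CA3 level of Slc1a2 and the dentate level of Slc1a3 did not differ between groups beyond the spread. Slc1a2 in CA3 neurons differed by 0.09 ± 0.11 in treated against untreated samples and 0.21 ± 0.11 in untreated 5×FAD against wild type, and Slc1a3 in dentate granule neurons by -0.16 ± 0.13 and -0.23 ± 0.12. For Slc1a3 the dentate samples stood in the order of WT_PBS highest and 5xFAD_Ab3FTnAu lowest, with no overlap between groups, and neither step passed the test. Slc1a2 in CA3 neurons stood in the opposite order, also with no overlap, and neither step passed. How many of all genes in these fields stood apart in this way was not counted.

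Over 48 sums (8 classes by 6 samples), the 9 genes correlated with each other at a median Pearson r of 0.744 on log2(CPM + 1), from 0.398 for Slc1a2 with Glul to 0.933 for Gja1 with Gjb6, over 36 pairs. The sums share libraries and classes, so the values describe class patterns and carry no p. Among 10587 other genes with a mean of at least 10 CPM, leaving out class markers, those most like Gja1 were Slco1c1 (r = 0.945), a thyroid hormone transporter, and Gm35552 (0.939). Gjb6 was closest to Gm6145 (0.945) and Slco1c1 (0.943), and Aqp4 to Glud1 (0.911) and Notch1 (0.911). Slc1a2 was closest to Wdr17 (0.924) and Prdx6 (0.919), Slc1a3 to Il18 (0.929) and Nfia (0.925), and Slc7a11 to Gm35552 (0.903) and C030018K13Rik (0.901). Glul was closest to Tmc7 (0.912) and Phgdh (0.908), an enzyme of serine synthesis, Aldh1l1 to Acsl3 (0.933) and Aox1 (0.916), and Fgfr3 to Atp13a4 (0.930) and Pdgfd (0.923).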

How the data were processed

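Single-cell libraries came from a 10x Genomics Chromium 3′ kit, per the labels' protocols. What the authors deposited are unnormalized UMI counts for each gene in each called cell. The file headers name Cell Ranger 7.1.0, and the submitters' processing notes name mm10 and Seurat 4.3.0.1. The sources used here do not say if introns were counted. The cell filter (500 genes and 1000 UMIs or more, mitochondrial UMIs 15% or less) kept 44736 cells, and the 3080 cells with the highest Scrublet scores (scanpy 1.11.5) were removed, at 0.8% per 1000 cells of a sample. A cell entered a class when it met the class's minimum of marker UMIs per 10000 with at least 3 distinct markers and met no other class's. Minimums were 80 for astrocytes and inhibitory neurons, 60 for oligodendrocytes, their precursors and microglia, 30 for dentate granule, 20 for CA1 and 12 for CA3 neurons. Neurons also needed at least 30 UMIs per 10000 of 10 general neuron genes, and glia fewer than 80. Of the kept cells, 11486 entered no class.

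For each class, the UMI counts of a sample's cells were added up, and the sums of all 6 samples entered 1 edgeR 4.0.16 quasi-likelihood fit (R 4.3.3, TMM factors, filterByExpr). A call is an adjusted p (Benjamini-Hochberg) under 0.05. An SE is the log2 change divided by the root of F, and CPM is scaled to the UMIs of the class in that sample. Neuron fields were compared with the sample as a block. Tests were tested on simulated data. Alternatives were DESeq2 1.42.0, its size factors, no count filter, leaving out each sample, the replicate number as a block, a stricter cell filter (1000 genes, 5%), doublets kept, a stricter class rule, and cells with or without a mitochondrial UMI. Thinning drew 1000 UMIs per cell. Named genes were all 9 genes, the 2 highest genes of a list with no call, and the 2 genes most correlated with each member. The genes, lists, markers and minimums were chosen with earlier results of these data known. Intervals cover counting error only. Python 3.11.15, numpy 2.4.6, scipy 1.17.1 and matplotlib 3.10.9 were used.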

Additional observations from a re-analysis of the deposited data

How the results depend on the processing

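Counts of the 9 genes past the threshold moved under few alternatives. In astrocytes, treated against untreated 5×FAD, the count was 0 as reported, 2 with no count filter, and 0 to 3 when leaving out 1 sample (3 without either WT_PBS sample, 1 without 5xFAD_PBS 1). In CA1 neurons it was 1 with no filter, where 1461 genes were called in all. In CA1 and inhibitory neurons the count also moved when 1 sample was left out. For untreated 5×FAD against wild type in dentate granule neurons it was 1 with no filter, where 790 genes were called in all. That count too moved when 1 sample was left out. The cause was not tested. Of 260 astrocyte values, 227 kept direction and call, 9 were newly called and 24 reversed, all of the 24 for differences that were not called.

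For untreated 5×FAD against wild type in astrocytes, Aqp4 was -0.0862 under the stricter class rule, and leaving out 1 sample gave -0.73 to 0.0837 for Gja1, -0.11 to 0.44 for Slc1a2, -0.22 to 0.0078 for Slc1a3, -0.24 to 0.20 for Glul and -0.15 to 0.52 for Aldh1l1. Glul was 0.000069 with DESeq2, 0.0016 with its size factors, 0.20 under the stricter class rule and 0.06005 in cells with a mitochondrial UMI. For treated against untreated 5×FAD, Slc1a2 was 0.14 in cells without a mitochondrial UMI and 0.11 under the stricter class rule, Glul was 0.58 without a mitochondrial UMI and 0.15 under the stricter cell filter, and leaving out 1 sample gave -0.18 to 0.00135 for Gjb6, -0.27 to 0.13 for Slc1a2, -0.25 to 0.19 for Glul and -0.0064 to 0.18 for Slc1a2 in CA3 neurons. The cause was not tested.

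Of 138 alternative values of the 13 called field differences, 127 kept their call, 10 lost it and 1 reversed (Glul in dentate granule neurons, -0.12 under the stricter class rule). Slc1a2 in CA3 neurons stayed at 1.87 to 2.27 and Slc1a3 in dentate granule neurons at 2.45 to 3.07.

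Counts over all genes moved more. In astrocytes 1 gene was called for treatment, 31 with no filter, 3 with DESeq2, 9 with the replicate block and 0 to 51 when leaving out 1 sample. For 5xFAD_PBS against WT_PBS it was 0, 49 with no filter and 0 to 197. In the 4 fields the reported 0 to 3 calls became up to 1652 with no filter and up to 4512 without 1 sample.

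Replicate numbers did not pair the samples: same-numbered deviations correlated at -0.153 to 0.0173. With the replicate number as a block no gene of the 9 was called, Gja1 was at -1.65 and Slc7a11 at -1.61 in treated astrocytes, and Glul was 0.00023. Astrocyte values rest on 39 to 105 cells in 5 of the 6 samples, which limits their precision.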
